A study of Mus musculus with 20 samples.

Results

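The genes described here are 9 surface or secreted-protein genes used as signatures of resting, so-called homeostatic microglia: P2ry12, P2ry13, Gpr34, Cx3cr1, Siglech, Tmem119, Selplg, Olfml3 and Fcrls. They were taken as a list of symbols, and all 9 of 9 were found among the 16810 genes of the deposited table. Microglia were isolated from the thoracic spinal cord of adult male CX3CR1+/eGFP mice on a C57BL/6 background, in which eGFP replaces an allele of Cx3cr1. The 20 samples formed 7 groups: non-injured cord (NI, n = 3), lateral hemisection (HS) at 72 h (n = 3), 1 week (n = 2) and 2 weeks (n = 3), and full transection (FT) at 72 h, 1 week and 2 weeks (n = 3 each). The cells were sorted as eGFP-high from a segment around the lesion, or the same level in NI mice, with no marker other than eGFP and a viability dye. More mice than samples were used, so that a sample may pool several animals, and the number per sample was not given. P-values then measure the spread between these samples.

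Microglia of the healthy central nervous system carry receptors that read the state of neurons and of damaged tissue. P2RY12 and P2RY13 are receptors for extracellular nucleotides, CX3CR1 binds the neuronal chemokine fractalkine, and GPR34 is a receptor for lysophosphatidylserine. SIGLECH and FCRLS are members of the Siglec and Fc receptor-like families, TMEM119 is a membrane protein widely used as a microglia marker, PSGL-1 (Selplg) binds selectins, and OLFML3 is a secreted olfactomedin-like protein. These genes are commonly treated as a single signature that is lowered when microglia respond to injury.

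The values are normalised read counts, in CPM, which are reads of a gene relative to a library size that the authors scaled. Read depth ran from 6.04 to 13.9 M reads in NI samples and from 3.87 to 34.1 M reads in injured samples. The deposited columns summed to 777430 to 830480 CPM in NI and to 878070 to 1202200 CPM after injury. Replicate 1 of FT at 1 week stood apart from its group. Its chi-square per degree of freedom against the other replicates was 86.7 and 98.7, while the other pairs of replicates within a group lay between 10.7 and 60.9. This measure, taken on reads, grows with depth, which was 11.8 to 14.2 M reads in FT at 1 week. Pairs of unlike depth are therefore not strictly comparable. Results that rest on it are given with and without it. In bulk samples, fewer cells of a type and less RNA per cell cannot be told apart.

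All 9 genes were abundant in NI samples, where they ranked between 15 (P2ry12) and 58 (Tmem119) of 16810 genes by mean level. Per kilobase of annotated exon, P2ry12 had the highest NI level at 1659 CPM per kb, followed by Fcrls at 734, Gpr34 at 731, Tmem119 at 535, P2ry13 at 491, Cx3cr1 at 448, Olfml3 at 400.3, Siglech at 369 and Selplg at 355 CPM per kb. The gaps from P2ry12 to Fcrls and from Gpr34 to Tmem119 exceeded the larger SD (n = 3) of the genes on either side, and the other 6 gaps between neighbours in this order did not. The exon lengths were unions over all annotated transcripts, 4505 bases for Cx3cr1 and 6161 bases for Olfml3, both of which have long annotated isoforms that lower their level per kb. Levels of Cx3cr1 came from mice with an eGFP-replaced allele in every group, NI included, and its promoter also drove the reporter on which the cells were sorted.

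A pair of neighbouring genes lies on each of 2 chromosomes. On chromosome 3 of GRCm38, P2ry13 (59207892 to 59210882, minus strand) and P2ry12 (59216272 to 59262871, minus strand) were separated by 5.39 kb with 0 other protein-coding genes between them, and both lie inside Med12l (59005825 to 59318682, plus strand). Their exons shared 9 bases (P2ry12) and 0 bases (P2ry13) with the exons of Med12l, which stood at a mean of 51.6 CPM in NI. On chromosome 5, Tmem119 (113793729 to 113800516) and Selplg (113818536 to 113832644), both on the minus strand, were separated by 18.0 kb, again with 0 protein-coding genes between them. Fcrls (87250758 to 87263738) and Olfml3 (103722222 to 103738001) are on the minus strand of chromosome 3, Siglech (55768178 to 55778925) on the plus strand of chromosome 7 and Cx3cr1 (119901616 to 120069879) on the minus strand of chromosome 9. Gpr34 (13632089 to 13640858, plus strand of chromosome X) lies inside Cask, with 0 shared exonic bases.

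RefSeq promoter sequences of GRCm38.p6 were at hand for 6 of the 9 genes. The 250 bases upstream of the start are printed for P2ry12 and P2ry13, neighbours whose levels moved together. They are also printed for Fcrls and Olfml3, the genes that were higher than NI at 72 h with the columns as deposited. Each reads 5′ to 3′ on the strand of the gene, and capitals mark AGGAAG or its reverse complement CTTCCT, a purine-rich core of the kind bound by ETS factors such as PU.1. The motif was chosen with the sequences known.
P2ry12, chr3:59262986-59263235, minus strand: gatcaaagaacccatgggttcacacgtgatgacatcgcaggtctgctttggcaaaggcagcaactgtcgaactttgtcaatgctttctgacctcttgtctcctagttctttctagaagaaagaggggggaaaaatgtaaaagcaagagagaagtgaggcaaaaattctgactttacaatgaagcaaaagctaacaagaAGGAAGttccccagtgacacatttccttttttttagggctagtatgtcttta
P2ry13, chr3:59210883-59211132, minus strand: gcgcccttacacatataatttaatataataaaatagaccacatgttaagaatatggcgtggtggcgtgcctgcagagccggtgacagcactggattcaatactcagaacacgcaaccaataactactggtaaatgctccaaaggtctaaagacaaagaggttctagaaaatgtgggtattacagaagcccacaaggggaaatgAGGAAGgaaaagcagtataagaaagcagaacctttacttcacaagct
Fcrls, chr3:87263525-87263774, minus strand: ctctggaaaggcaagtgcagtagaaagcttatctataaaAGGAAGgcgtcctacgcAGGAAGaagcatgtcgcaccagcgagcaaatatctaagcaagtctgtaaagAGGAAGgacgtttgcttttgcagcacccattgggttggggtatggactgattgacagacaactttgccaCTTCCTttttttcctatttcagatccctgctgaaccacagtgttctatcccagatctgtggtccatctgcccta
Olfml3, chr3:103738002-103738251, minus strand: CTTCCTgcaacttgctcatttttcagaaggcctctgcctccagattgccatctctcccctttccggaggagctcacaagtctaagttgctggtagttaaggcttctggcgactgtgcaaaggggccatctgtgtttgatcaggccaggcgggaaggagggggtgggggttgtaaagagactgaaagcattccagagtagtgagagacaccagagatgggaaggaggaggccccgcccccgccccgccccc
P2ry12 and P2ry13 each held 1 match, 47 and 42 bases from the start, Fcrls held 4 and Olfml3 1, while the windows of Siglech and Cx3cr1 held 0. The starts are those of RefSeq and differ from some gene positions given above. On those positions most of the Fcrls window and all of the Cx3cr1 window lie inside the gene. Of 32851 RefSeq mouse promoter windows of the same length 29.5% held the motif on either strand. A match describes letters in the window and says nothing about binding in these cells.

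To ask how far these genes changed after SCI, each injured group was compared with NI by limma on log2(CPM + 0.5), with Benjamini-Hochberg adjustment over all 16810 genes. A gene was called at an adjusted p below 0.05 and a change of at least 2-fold. The 9 genes did not move as a block. Fcrls rose and Tmem119 fell at 72 h after both lesions, Fcrls also rose at 1 week after FT, P2ry12 fell at 2 weeks after FT, and no other gene of the list was called. At 72 h, 1 of 9 genes was called higher and 1 lower after HS, against 9.08% and 4.31% of all genes, and 1 higher and 1 lower after FT, against 8.14% and 4.09%. At 1 week, 0 were called higher or lower after HS (1.70% and 0.482% of all genes), and 1 was called higher and 0 lower after FT (2.86% and 1.2%). At 2 weeks, 0 were called in either direction after HS (2.43% higher and 0.797% lower among all genes), and 0 higher and 1 lower after FT (3.53% and 1.36%). At an unadjusted p below 0.05 there were 6, 6 and 4 of the 9 genes at 72 h, 1 week and 2 weeks after HS (39.3%, 12.8% and 16.1% of all genes) and 6, 3 and 6 after FT (36.6%, 18.2% and 19.1%). edgeR and DESeq2 on the recovered reads gave the same counts of calls.

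**Figure D1:**
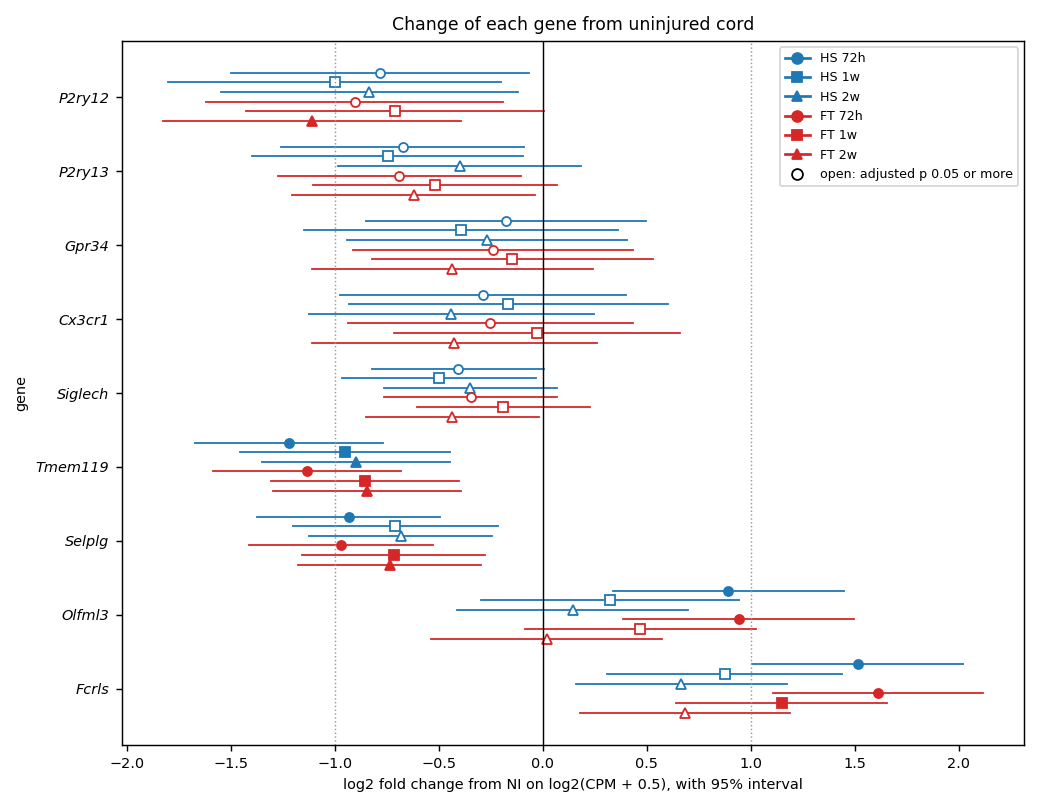
Log2 fold change of each gene from NI on log2(CPM + 0.5), with 95% intervals from limma, for HS (blue) and FT (red) at 72 h (circles), 1 week (squares) and 2 weeks (triangles). Filled symbols had an adjusted p below 0.05, and dotted lines mark 2-fold. Tmem119 and Selplg lie left of 0 in all 6 comparisons and Fcrls lies right of 0. Olfml3 lies right of 0 as deposited, but its values at 1 and 2 weeks change sign with quantile normalisation.

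Without the 2-fold limit, 4 of 9 genes had an adjusted p below 0.05 at 72 h after HS and 4 of 9 at 72 h after FT, where 27.3% and 24.2% of all genes did. After HS the count was then 1 by week 1 (2.68% of all genes) and 1 by week 2 (4.99%). After FT it was 3 (7.03%) and 3 (8.17%). Samples of the injured group lay wholly above or below the NI samples for 7 genes in HS at 72 h (49.0% of all genes), 8 in HS at 1 week (37.3%) and 7 in HS at 2 weeks (24.8%). After FT the numbers were 7 at 72 h (44.9%), 3 at 1 week (21.5%) and 7 at 2 weeks (30.7%).

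Tmem119 was lower than NI in every injured sample. It stood at 1196, 1263 and 1257 CPM in NI. After HS it stood at 461, 636 and 513 CPM at 72 h, 632 and 648 CPM at 1 week, and 787, 447 and 835 CPM at 2 weeks. After FT it stood at 619, 515 and 562 CPM at 72 h, 855, 559 and 671 CPM at 1 week, and 698, 720.2 and 654 CPM at 2 weeks. All 17 injured samples lay below all 3 NI samples. Tmem119 fell at 72 h by 1.22 ± 0.22 (SE) on the log2 scale after HS (limma, adjusted p = 0.000258) and by 1.13 ± 0.22 after FT (adjusted p = 0.000586). Later differences from NI lay between -0.95 and -0.84, with adjusted p from 0.01495 to 0.0343, short of 2-fold. Each of these 4 later differences missed 0.05 in 3 to 5 of the 20 fits that left out 1 sample. Other such fits took Tmem119 past 2-fold. Without replicate 1 of FT at 1 week, the highest of its group, the difference there was -1.02 and was called lower. At 2 weeks after HS the difference ran from -1.06 to -0.61 over these fits and was called lower in 2 of the 20.

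Selplg, the neighbour of Tmem119, was lower by a similar amount. It stood at 1595, 1442 and 1505.5 CPM in NI. At 72 h it stood at 595, 1091.5 and 765 CPM after HS and at 841, 753 and 727 CPM after FT. At 1 and 2 weeks all samples lay between 739.9 and 1085 CPM. No injured sample reached the lowest NI sample. The log2 difference from NI was -0.93 ± 0.21 at 72 h after HS (limma, adjusted p = 0.00238) and -0.97 ± 0.21 after FT (adjusted p = 0.00193), below the 2-fold limit. At later times it ran from -0.74 to -0.68, with an adjusted p below 0.05 after FT (0.0433 and 0.0321) and not after HS (0.136 and 0.0697, the latter 0.0400 without replicate 1 of FT at 1 week). The values after FT missed 0.05 in 12 and 6 of the 20 fits that left out 1 sample.

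**Figure D2:**
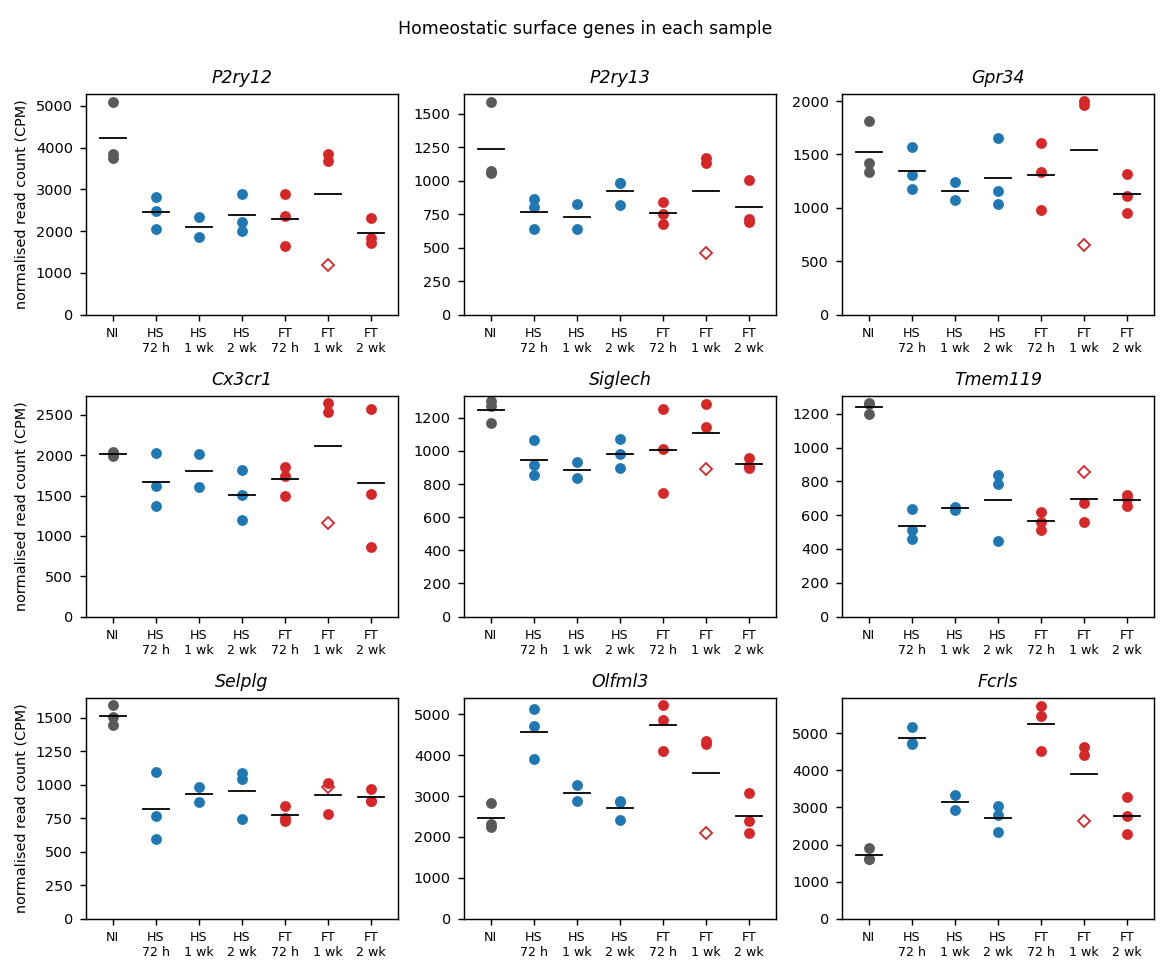
Normalised read count in CPM (linear axes from 0) of each gene in each of the 20 samples, grouped as NI (grey), HS (blue) and FT (red). Points are samples, black bars are group means, and the open diamond is replicate 1 of FT at 1 week. Tmem119 and Selplg are below all NI samples in every injured sample, and Fcrls is above them in every injured sample.

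P2ry12, the nucleotide receptor that guides microglial processes to injury, was the most abundant of the 9 genes in NI. It stood at 5085, 3845 and 3739 CPM in NI. After HS it stood at 2489, 2812 and 2052 CPM at 72 h, 2346 and 1861 CPM at 1 week, and 2227, 2892 and 2002 CPM at 2 weeks. After FT it stood at 1631, 2882 and 2371 CPM at 72 h, 1182, 3668 and 3843 CPM at 1 week, and 2319.5, 1709 and 1834 CPM at 2 weeks. Every injured group lay below NI except FT at 1 week, where replicate 3 exceeded the lowest NI sample and replicate 1 had the lowest value of all. P2ry12 fell by 1.11 ± 0.34 on the log2 scale at 2 weeks after FT (limma, adjusted p = 0.0492). This call was lost in 15 of the 20 fits that left out 1 sample (adjusted p up to 0.178), with median-of-ratios scaling (0.0552) and with the replicate number as a block (0.0604). The other differences were -0.71 to -1.0 with adjusted p between 0.0599 and 0.277. The spread that all groups share in this fit was set in part by replicate 1 of FT at 1 week. Without that sample the adjusted p was 0.0123 and 0.00523 at 72 h after HS and FT, 0.0278 and 0.0290 at 1 and 2 weeks after HS, and 0.00240 at 2 weeks after FT, with the differences as before, and P2ry12 at 1 week after HS was then called lower. FT at 1 week itself moved from -0.71 to -0.16 (adjusted p = 0.730).

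P2ry13, the receptor next to P2ry12, had lower levels in parallel. It stood at 1593, 1055 and 1076.5 CPM in NI and between 641 and 862 CPM in the 6 samples at 72 h. At 1 and 2 weeks it stood between 639 and 984 CPM after HS. After FT it stood at 464, 1172 and 1132 CPM at 1 week and at 1008, 690.5 and 714 CPM at 2 weeks. As for P2ry12, FT at 1 week was the group that overlapped NI, and replicate 1 was its low sample. The log2 differences from NI ran from -0.75 to -0.40 and none had an adjusted p below 0.05 (0.0786 to 0.551). Without replicate 1 of FT at 1 week, the adjusted p was 0.0117 and 0.0109 at 72 h after HS and FT and 0.0452 at 2 weeks after FT.

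Gpr34, Cx3cr1 and Siglech did not pass the test in any of the 6 comparisons with the columns as deposited. With quantile normalisation, Siglech was called lower at 72 h after HS and FT (-1.15 and -1.05, limma, adjusted p = 1.01e-05 and 3.04e-05), and Cx3cr1 at 72 h after both (-1.08 and -1.002, adjusted p = 0.00853 and 0.0156) and at 2 weeks after both (-1.02 and -1.13, adjusted p = 0.0427 and 0.0167). Gpr34 stood at 1817, 1423.5 and 1340.1 CPM in NI, at 954.5 to 1650 CPM after injury outside FT at 1 week, and at 650.5, 1964 and 1998 CPM in FT at 1 week. Its log2 differences from NI ran from -0.43 to -0.15, and the last of these, for FT at 1 week, was 0.39 without replicate 1 (limma, adjusted p = 0.298). Siglech stood at 1303, 1171 and 1273 CPM in NI and between 748 and 1286 CPM after injury, with differences of -0.50 to -0.19. Its samples lay below all NI samples in HS at each of the 3 times and in FT at 2 weeks.

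Cx3cr1, the fractalkine receptor gene, had nearly the same level in all NI samples (2017, 1997 and 2040.2 CPM) and a wide spread after injury. After HS it stood at 1369.8, 2034 and 1619.5 CPM at 72 h, 2011 and 1607 CPM at 1 week, and 1198, 1821 and 1509 CPM at 2 weeks. After FT it stood at 1499, 1745 and 1859 CPM at 72 h, 1158, 2644 and 2536 CPM at 1 week, and 2571, 867 and 1522 CPM at 2 weeks. FT at 1 week and at 2 weeks each held samples above and below all NI samples. The differences from NI were -0.44 to -0.03, and their intervals reached from -1.13 to 0.66, which takes in a 2-fold lower level. Without replicate 1, FT at 1 week stood 0.36 above NI (limma, adjusted p = 0.476).

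Fcrls, an Fc receptor-like gene of microglia, moved the other way. It stood at 1912, 1612 and 1615 CPM in NI. After HS it stood at 4714, 5172.5 and 4749 CPM at 72 h, 3349 and 2925 CPM at 1 week, and 2787, 2341.5 and 3050.3 CPM at 2 weeks. After FT it stood at 4535, 5465 and 5745 CPM at 72 h, 2646, 4637 and 4416 CPM at 1 week, and 3269.5, 2770.1 and 2280.4 CPM at 2 weeks. All 17 injured samples lay above the highest NI sample. Fcrls rose at 72 h by 1.51 ± 0.24 on the log2 scale, 2.85-fold, after HS (limma, adjusted p = 8.99e-05) and by 1.61 ± 0.24, 3.06-fold, after FT (adjusted p = 4.99e-05). It also rose at 1 week after FT, by 1.15 ± 0.24 (adjusted p = 0.00426), or 1.41 without replicate 1 (adjusted p = 0.000138). That call at 1 week was lost when the columns were scaled to the same total (0.80, adjusted p = 0.0102), with quantile normalisation (0.56, adjusted p = 0.0688) and in a fit of the compared samples alone (1.15, adjusted p = 0.0908). At 1 and 2 weeks after HS and 2 weeks after FT the differences were 0.87, 0.67 and 0.68, with adjusted p of 0.0990, 0.143 and 0.0974, or 0.0193, 0.0350 and 0.0210 without that sample.

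Olfml3, whose product is secreted, had a similar course with smaller differences. It stood at 2840.3, 2320.4 and 2239 CPM in NI. At 72 h it stood at 4714, 5120.1 and 3897 CPM after HS and at 4112, 4861.5 and 5238 CPM after FT. At 1 week it stood at 2889 and 3263 CPM after HS and at 2105, 4339 and 4276 CPM after FT. All 6 samples at 72 h lay above NI, and FT at 1 week was split, with replicate 1 below all NI samples. Its difference from NI was 0.47 (limma, adjusted p = 0.389), or 0.81 without that replicate (adjusted p = 0.0167). The log2 difference at 72 h was 0.89 ± 0.27 after HS (limma, adjusted p = 0.0169) and 0.94 ± 0.27 after FT (adjusted p = 0.0131), short of 2-fold, and missed 0.05 in 4 and 2 of the 20 fits that left out 1 sample. At 2 weeks the samples lay between 2102 and 3065.5 CPM, and the differences of 0.14 and 0.02 were smaller than their standard errors.

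These values depend on how the columns were scaled. The columns of injured samples had higher totals than those of NI, and with every column set to the same total the median log2 change over all genes moved from -0.11 to -0.52 at 72 h after HS and from -0.09 to -0.48 after FT. The medians at 1 and 2 weeks became -0.17 and -0.29 after HS and -0.32 and -0.36 after FT. On that scale, Fcrls at 72 h stood 1.00 (limma, adjusted p = 0.000483) and 1.14 (adjusted p = 0.000167) above NI after HS and FT. Olfml3 stood 0.38 and 0.47 above NI and did not pass (adjusted p = 0.145 and 0.0805). Tmem119 at 72 h stood at -1.73 and -1.60, Selplg at -1.44 and -1.44, P2ry12 at -1.29 and -1.37 and P2ry13 at -1.18 and -1.16, each with an adjusted p below 0.05. With quantile normalisation, Fcrls at 72 h was 0.82 and 0.86 above NI (adjusted p = 0.00209 and 0.00156), under 2-fold, and Olfml3 was 0.14 above NI in both. With quantile normalisation 6, 4 and 4 of the 9 genes were called lower at 72 h, 1 week and 2 weeks after HS, against 4.78%, 0.940% and 0.904% of all genes, and 6, 3 and 5 after FT, against 4.45%, 1.44% and 1.58%. None of the 9 was then called higher, against 6.61%, 1.78% and 2.31% of all genes after HS and 6.18%, 2.42% and 2.86% after FT. With equal totals 4, 2 and 3 were called lower after HS, against 19.0%, 1.13% and 2.58% of all genes, and 4, 3 and 4 after FT, against 16.2%, 3.99% and 4.87%. Fcrls was the gene called higher on that scale, at 72 h after each lesion, against 3.68% and 3.69% of all genes, and at 1 and 2 weeks there was none, against 1.29% (HS) and 1.40% (FT) of all genes at 1 week and 1.45% and 1.71% at 2 weeks. The order of the genes was similar under the 3 scalings, with Tmem119 the lowest and Fcrls the highest in both comparisons.

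**Figure D3:**
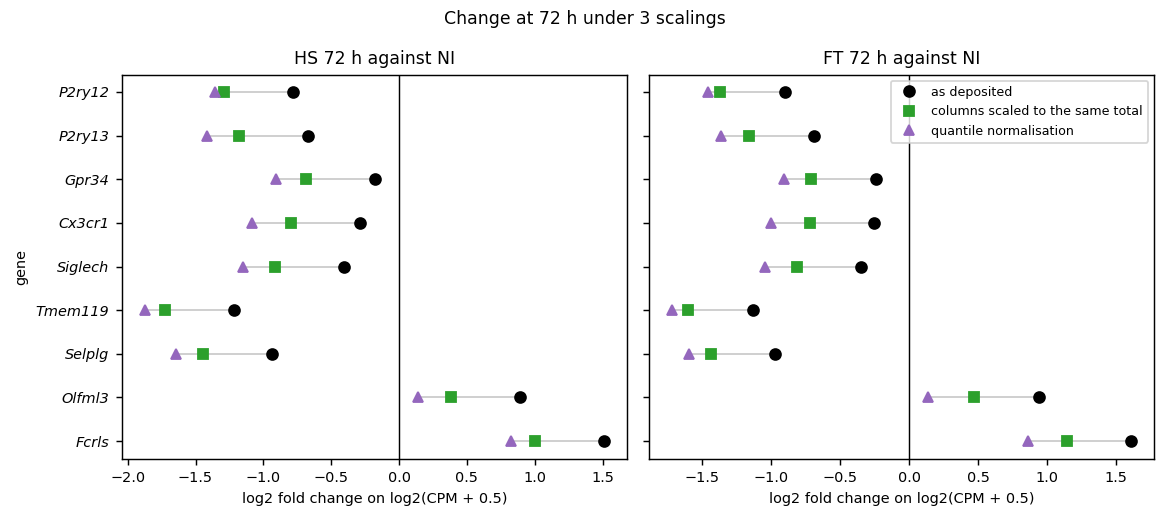
Log2 fold change from NI at 72 h after HS (left) and FT (right) for each gene with the columns as deposited (black circles), scaled to the same total (green squares) and quantile normalised (purple triangles). Every gene lies further left under the other scalings, 7 genes lie left of 0 and Fcrls and Olfml3 right of 0 under all 3.

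To ask whether the lesion severity mattered, FT was compared with HS at each time. None of the 9 genes had an adjusted p below 0.05 by limma, and neither did any of the 16810 genes (0% in each of the 3 comparisons). At an unadjusted p below 0.05 there were 0 of the 9 genes at each time, and 505, 724 and 438 of all genes. Over all genes and with the 2-fold limit, edgeR's quasi-likelihood test called 0 at each time, its likelihood ratio test 0, 8 and 1, and DESeq2 0, 7 and 1, none of the 9 among them. The differences between FT and HS ran from -0.12 (P2ry12) to 0.10 (Fcrls) on the log2 scale at 72 h, with 95% intervals reaching from -0.84 to 0.72. At 1 week they ran from -0.01 (Selplg) to 0.31 (Siglech), with intervals from -0.63 to 1.09, and at 2 weeks from -0.28 (P2ry12) to 0.05 (Tmem119), with intervals from -0.99 to 0.70. Differences up to about 2-fold in single genes were thus within the intervals at 1 and 2 weeks. The values at 1 week rested in part on replicate 1 of FT. Without it, FT stood further above HS, by 0.85 for P2ry12, 0.78 for Gpr34, 0.67 for P2ry13 and 0.53 for Fcrls and Cx3cr1. None of the 9 genes passed in that fit either.

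Between times, the genes that were higher at 72 h were the ones that differed. Fcrls was lower at 2 weeks than at 72 h by -0.85 ± 0.24 after HS (limma, adjusted p = 0.0290) and -0.93 ± 0.24 after FT (adjusted p = 0.0246). Olfml3 was lower by -0.92 ± 0.27 after FT (adjusted p = 0.0436) and by -0.75 ± 0.27 after HS (adjusted p = 0.0789, or 0.0135 without replicate 1 of FT at 1 week). Of the 20 fits that left out 1 sample, 4 for Fcrls after each lesion and 14 for Olfml3 after FT did not reach an adjusted p below 0.05 (up to 0.106, 0.147 and 0.195). The samples of the compared times did not overlap in any of these 4 comparisons, nor did those of Tmem119 and Selplg after FT, which did not pass. Groups of 2 or 3 samples often do not overlap: against NI 21.5% to 49.0% of all genes did not. The share of all genes between these times is not given here. Genes with an adjusted p below 0.05 thus numbered 1 of 9 between 72 h and 2 weeks after HS and 2 of 9 after FT, where 10.2% and 5.78% of all genes did, and none differed by 2-fold. From 72 h to 1 week 0 of 9 passed after HS and 0 after FT, against 9.54% and 5.28% of all genes, and from 1 week to 2 weeks 0 and 0, against 0.0119% and 0.0714%. Over these 4 comparisons 1 gene had an unadjusted p below 0.05, Fcrls from 72 h to 1 week after HS (-0.64, limma, adjusted p = 0.136, or 0.0444 without replicate 1 of FT at 1 week), and edgeR and DESeq2 also called none of the 9 in them. Tmem119 and Selplg were 0.23 to 0.32 above their 72 h level at 2 weeks after either lesion, with adjusted p of 0.376 and above, and above it in all samples after FT.

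Ratios within a sample do not depend on a factor by which a whole column is multiplied, but quantile normalisation can change them. The ratio of P2ry12 to P2ry13 averaged 3.43 in NI, 3.07 in the 6 samples at 72 h and 2.69 in the 11 samples at 1 and 2 weeks. The late ratio lay below all NI samples in 10 of 11 samples, a log2 difference of -0.35 (exact permutation test over samples, two-sided, p = 0.0110, 0.0549 after adjustment over 6 tests), and the 72 h difference was -0.16 (p = 0.119). The ratio of Cx3cr1 to P2ry12 averaged 0.483 in NI, 0.718 at 72 h and 0.748 later. It was above all NI samples in 6 of 6 samples at 72 h and in 9 of 11 later samples, with log2 differences of 0.57 (exact permutation p = 0.0238, the smallest that this design allows) and 0.63 (p = 0.0275), both 0.0549 after adjustment. Tmem119 to Selplg averaged 0.819 in NI, 0.7005 at 72 h and 0.728 later (exact permutation p = 0.0714 and 0.110, adjusted p = 0.107 and 0.119). None of the 6 ratio tests passed 0.05 after adjustment.

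**Figure D4:**
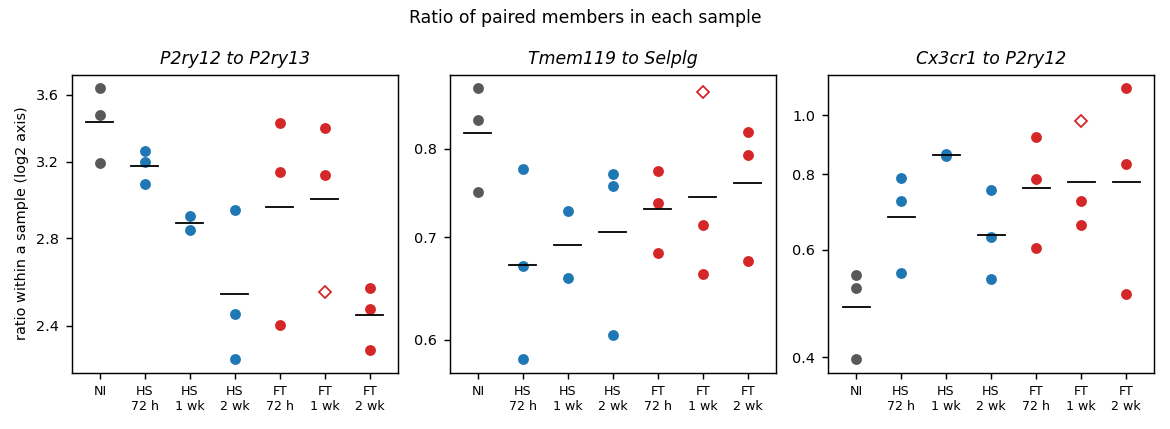
Ratio of the paired genes within each sample (log2 axes) for NI (grey), HS (blue) and FT (red). Points are samples, bars are geometric means, and the open diamond is replicate 1 of FT at 1 week. The ratio of Cx3cr1 to P2ry12 is above all NI samples in 6 of 6 samples at 72 h, and the ratio of P2ry12 to P2ry13 is below them in 10 of 11 samples at 1 and 2 weeks.

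Across the 20 samples the 9 genes fell into sets that varied together. Pearson's r on the log2 scale was 0.94 between Tmem119 and Selplg, 0.92 between P2ry12 and P2ry13, 0.895 between P2ry12 and Gpr34, 0.845 between P2ry12 and Siglech, and 0.89 between Olfml3 and Fcrls. Fcrls and Tmem119 had the lowest r, -0.75, and 8 of the 36 pairs had a negative r. Without replicate 1 of FT at 1 week the same pairs had r of 0.943, 0.896, 0.862, 0.882, 0.908 and -0.747. The samples share the groups and the column scaling, and the values are a description of these libraries. Among 7371 genes with a mean of at least 10 CPM in every group, Capn3 (r = 0.874), Cysltr1 (0.852), Tlr4 (0.850) and Il16 (0.849) were among the 5 most alike to the mean profile of the 9 genes, with r between 0.807 and 0.871 over the 19 samples without that replicate.

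**Figure D5:**
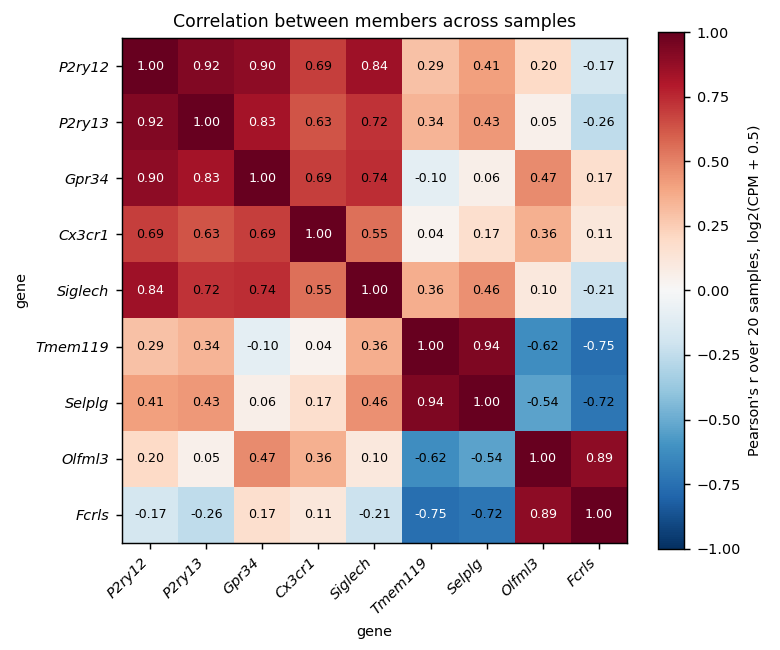
Pearson's r between the 9 genes over 20 samples on log2(CPM + 0.5), from blue (negative) to red (positive). P2ry12, P2ry13, Gpr34, Cx3cr1 and Siglech form a block of positive values, Tmem119 and Selplg another at 0.94 and Olfml3 and Fcrls another at 0.89, and the last pair is negative with Tmem119 and Selplg.

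Family relatives of the 9 genes behaved in several ways. Of 23 relatives in the table, 3 were called higher and 0 lower at 72 h after HS, against 9.08% and 4.31% of all genes. After FT 5 were higher and 1 lower, against 8.14% and 4.09%. Later counts were 2 to 3 higher and 0 to 2 lower, against 1.70% to 3.53% and 0.482% to 1.36% of all genes. Cd22, a Siglec receptor, rose at 2 weeks after FT from 15.1 to 99.8 CPM (log2 change 2.69, limma, adjusted p = 5.07e-07), and Siglec1, the macrophage sialoadhesin, rose there from 7.13 to 27.6 CPM (1.80, adjusted p = 4.98e-05). Siglecg fell there from 4.74 to 1.02 CPM (by 1.78, adjusted p = 0.00281). P2ry14 and Gpr171, receptors of the gene cluster that holds P2ry12, were scarce: P2ry14 rose from 0.648 to 3.5 CPM at 72 h after HS (adjusted p = 0.000307) and Gpr171 from 0.688 to 7.73 CPM at 72 h after FT (adjusted p = 0.00876). The latter rested on replicate 1, which stood at 18.35 CPM: without it the mean was 2.43 CPM and the call was lost (adjusted p = 0.0757), as it was without replicate 2 of NI (adjusted p = 0.0516).

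Among 17 ligands, adaptors and signalling partners, 3 were called higher and 0 lower at 72 h after HS, against 9.08% and 4.31% of all genes. After FT 3 were higher and 1 lower, against 8.14% and 4.09%. At later times 0 to 2 were higher and 0 lower, against 1.70% to 3.53% and 0.482% to 1.36% of all genes. Tyrobp, the adaptor with which SIGLECH signals, rose at 2 weeks after FT from 1758 to 3914 CPM (log2 change 1.16, limma, adjusted p = 0.00451). Hcst, a related adaptor, rose from 12.2 to 36.1 CPM (1.51, adjusted p = 2.38e-05). Tgfbr1, a receptor chain for TGF-beta, which maintains the homeostatic programme, fell at 72 h after FT from 1089.5 to 545 CPM (by 1.00, adjusted p = 0.00234), and was just short of 2-fold without replicate 1 or 2 of that group or replicate 1 of NI. Nt5e, which makes adenosine from AMP, rose there from 1.17 to 5.71 CPM (1.60, adjusted p = 0.00604), but replicate 1 stood at 11.6 CPM, and without it the mean was 2.76 CPM and the call was lost (0.97, adjusted p = 0.0516).

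Of 27 other microglia signature genes, 3 to 5 were called lower and 0 to 1 higher in each comparison, with median log2 changes between -0.33 and 0.09. Among all genes 0.482% to 4.31% were called lower and 1.70% to 9.08% higher. Upk1b fell from 48.8 to 9.90 CPM at 2 weeks after FT (by 2.23, limma, adjusted p = 2.49e-06), the hexose transporter gene Slc2a5 from 509 to 194 CPM there (by 1.39, adjusted p = 0.000418), and the adhesion receptor gene Gpr56 from 829 to 318 CPM at 72 h after FT (by 1.38, adjusted p = 9.13e-05). Gpr165 fell from 11.7 to 2.34 CPM at 72 h after FT (by 2.12, adjusted p = 9.41e-05), while Lag3, at 375 and 49.2 CPM in the samples at 1 week after HS against a mean of 70.7 CPM in NI, did not pass (adjusted p = 0.754). The medians of the 9 genes ran from -0.50 to -0.19, beside medians of all genes between -0.11 and 0.02. These gene lists, like the 9 genes, were drawn up with earlier results of these data known.

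Disease-associated and proliferation genes moved in the same samples. Of 16 disease-associated genes, 13 to 15 were called higher in each comparison and 0 lower, against 1.70% to 9.08% and 0.482% to 4.31% of all genes. Their summed level was 21770 to 24190 CPM in NI and 49800 to 105600 CPM after injury. All 15 proliferation genes were called higher at 72 h after HS and FT (9.08% and 8.14% of all genes) and 1 to 3 at later times (1.70% to 3.53%). Their summed levels were 218.6 to 219.6 CPM in NI, 1270 to 2251 CPM at 72 h and 244 to 357 CPM later. The level of the proliferation list was thus high at the time at which Fcrls and Olfml3 were highest, and its part in their levels was not tested.

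Markers of other cells moved as well. Of 14 genes of monocytes and monocyte-derived macrophages, 7 and 10 were called higher at 72 h after HS and FT (9.08% and 8.14% of all genes). At 1 week 5 and 4 were called higher (1.70% and 2.86%) and at 2 weeks 4 and 4 (2.43% and 3.53%). In each comparison 0 were called lower, against 0.482% to 4.31% of all genes. Their summed level was 92.0 to 105 CPM in NI, 754 to 874 CPM at 72 h after HS, 687 to 1453 CPM at 72 h after FT and 310 to 628 CPM later, against 10930 to 21170 CPM for the 9 genes together over all samples. Fn1, the fibronectin gene, had means of 12.9 CPM in NI and 545.5 and 597 CPM at 72 h after HS and FT. The monocyte markers Ccr2 and Ly6c2 were above 0 in every sample, with means of 18.0 and 1.08 CPM in NI. At 72 h the means were 72.0 and 1.67 CPM after HS and 97.0 and 4.64 CPM after FT. At 2 weeks they were 20.7 and 2.72 CPM after HS and 17.8 and 1.91 CPM after FT. Others of the list had lower means at 72 h: Ly6c1 (14.9 CPM in NI, 10.4 and 12.3 CPM after HS and FT) and, after HS, Vcan (3.15 to 2.54 CPM). In a parallel experiment of the paper, antibody-stained eGFP-high cells of NI and HS mice were LY6C-negative. By CD45, eGFP-positive cells at 72 h fell into a low and a high set. The authors read these as most likely ramified microglia and activated macrophages. At 1 and 2 weeks the sets could not be told apart, and the authors did not exclude some infiltrating macrophages among the sorted cells. The part of monocytes and monocyte-derived macrophages in the levels of the 9 genes was not tested.

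Of 10 border-associated macrophage genes, 2 to 3 were called higher and 0 to 6 lower in each comparison, against 1.70% to 9.08% and 0.482% to 4.31% of all genes. The list summed to 134 to 475 CPM over all samples. Astrocyte genes summed to 383 to 652 CPM in NI and 162 to 681 CPM after injury. Of these 7 genes 1 to 4 were called lower and 0 to 2 higher, against the same shares of all genes. Of 7 oligodendrocyte genes 0 were called by limma in any comparison, against 2.18% to 13.4% of all genes in those with NI. At an unadjusted p below 0.05 there were 1 to 3, against 12.8% to 39.3% of all genes. The oligodendrocyte genes summed to 1139 to 2324 CPM in NI and 382 to 2436 CPM after injury. Neutrophil, lymphocyte, neuron and endothelium lists summed to at most 292.5, 16.7, 56.7 and 51.0 CPM in any sample. At most 1 gene of each was called higher and 2 lower in a comparison, against at most 9.08% and 4.31% of all genes. The part of these cells was not tested.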

How the data were processed

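RNA of eGFP-high cells was amplified with Clontech SMARTer Ultra Low and Illumina Nextera kits and sequenced by the authors, who mapped reads to mm10 with TopHat2 2.0.9, counted genes with HTSeq 0.5.4p3 and normalised with edgeR 3.3.6, per the labels and the study's methods. The strand setting is not given in the sources used here. The deposited table holds a normalised signal (CPM of a scaled library size) for genes that reached 10 counts in at least 2 replicates. Whole reads were recovered from the steps between values: 100% of 336200 values were whole within 0.001 read.

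The 9 genes and all gene lists were chosen with earlier results of these data known. limma 3.58.1 (R 4.3.3) was fitted with an intensity trend to log2(CPM + 0.5) over all 20 samples with a mean per group and no covariate, and p-values were adjusted over 16810 genes. edgeR 4.0.16 and DESeq2 1.42.0 were run on recovered reads as alternatives. Pair ratios were tested by exact permutation over samples. All fits were tested on simulated data. All 9 genes are named; from each other list at most 5 could be named, those with the largest change from NI and a mean of at least 1 CPM in a group, and beside them the monocyte markers Ccr2 and Ly6c2. Only some of the genes that this rule allows are named, none from several lists, and some are not reported here. Leaving out single samples for named genes of the other lists was added after the data were seen. Positions and exon lengths are those of GENCODE vM21.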

Additional observations from a re-analysis of the deposited data

Results flagged for a closer look

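Differences between times passed the test in 3 cases, all under 2-fold. Fcrls differed from 72 h to 2 weeks by -0.85 on the log2 scale after HS and by -0.93 after FT. Olfml3 differed by -0.92 from 72 h to 2 weeks after FT. No group held the 4 samples needed to look for a sample far from the others by Dixon's test, and every column of the table entered the comparisons.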

How the results depend on the processing

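Counts are of the 9 genes called. Under quantile normalisation 6, 4 and 4 were called lower at 72 h, 1 week and 2 weeks after HS and 6, 3 and 5 after FT, where 4.78%, 0.940%, 0.904%, 4.45%, 1.44% and 1.58% of all genes were lower, and 0 higher at 72 h after HS, 0 at 72 h after FT and 0 at 1 week after FT (6.61%, 6.18% and 2.42% of all genes). With columns scaled to the same total 4, 2 and 3 were lower after HS and 4, 3 and 4 after FT, where 19.0%, 1.13%, 2.58%, 16.2%, 3.99% and 4.87% of all genes were, with 0 higher at 1 week after FT (1.40%). Without the fold limit 2 were lower and 2 higher at 72 h after HS, 2 and 2 at 72 h after FT, 1 lower in each later HS group, 2 and 3 lower in the later FT groups, and 1 and 2 lower from 72 h to 2 weeks after HS and FT. With only the compared samples, 1 was lower at 1 week after HS and 0 higher at 1 week after FT. The call of P2ry12 at 2 weeks after FT was lost with median-of-ratios scaling (0 lower) and with the replicate block (0 lower, adjusted p = 0.0604). The cause of these changes was not tested, except that dropping the fold limit admits smaller changes. The replicate block moved no other count. Same-numbered samples of different groups had a median correlation of deviations of 0.002 (57 pairs, -0.426 to 0.444), against 0.001 for other numbers. These medians showed no pairing by number, but cannot exclude it among some of the samples. The other 360 counts under these settings, and the edgeR and DESeq2 counts among them, stayed as reported, and no called difference changed sign. Olfml3 at 2 weeks after FT, 0.02 and not called as deposited, was -0.71 under quantile normalisation (limma, adjusted p = 0.0252).

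Leaving out 1 sample at a time gave 1 to 2 higher and 1 to 2 lower at 72 h after HS and the same range after FT, 0 to 1 lower in each of the later groups, and 0 to 2 lower from 72 h to 2 weeks after FT. The P2ry12 call at 2 weeks after FT was lost in 15 of 20 such fits. The ratio of P2ry12 to P2ry13 at 1 and 2 weeks ran from -0.403 to -0.308 (exact permutation, adjusted p 0.0420 to 0.154) and that of Cx3cr1 to P2ry12 from 0.491 to 0.721 (adjusted p 0.0420 to 0.154): the first passed without replicate 1 of HS at 2 weeks, replicate 3 of FT at 1 week or replicate 2 of FT at 2 weeks, and the second without the first or last of these. No ratio passed with either lesion alone, where 3 against 3 samples at 72 h cannot go below 0.10, or with the replicate block. Depth was ample for all 9 genes, and the limits are the 2 to 3 samples per group, the scaling of the columns and replicate 1 of FT at 1 week.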
